A study of Mus musculus with 19 samples.

Results

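The comparison set CD8-fated thymocytes that carry 1 T cell receptor (TCR) against CD8-fated thymocytes that carry many. The cells with 1 TCR came from F5 mice, whose transgenic TCR is driven by the CD2 promoter and recognizes a peptide on MHC class I, and which also lack *Rag1*. The cells with many TCRs came from MHCII-/- mice, which lack the class II chain gene *H2-Ab1* and are *Rag1*-sufficient. Both groups had 2 female mice of 4 to 8 weeks, each on 1 lane of the 10x system, with RNA and 111 surface proteins read from the same cells by CITE-seq. The F5 thymocytes were not sorted, whereas the MHCII-/- thymocytes had been sorted as CD5+TCRβ+. To set like cells side by side, a cell was kept if at most 15% of its RNA UMIs were mitochondrial, if it had at least 200 genes, and if its CD5 and its TCRβ antibody each reached the 25th percentile of the pooled MHCII-/- cells (644.9 and 28.2 UMIs per 10000 antibody UMIs). This kept 9841 of the 85389 barcodes on the 19 lanes of the series, namely 2121 and 3024 cells of F5 replicates 1 and 2 and 1785 and 2911 cells of MHCII-/- replicates 1 and 2. Of the cells that passed the RNA filters, the antibody gate kept 80.2% and 66.8% in F5 and 51.1% and 55.6% in MHCII-/- mice. The number of TCRs, the loss of *Rag1*, the sort and the loss of class II all differ between the groups, so their parts in any difference cannot be told apart. Sorted wild-type C57BL/6 mice (n = 3) and unsorted OT-I mice (n = 2), whose transgenic TCR also recognizes a peptide on MHC class I, passed through the same gate and are given as levels without a test, since the OT-I libraries carry another title prefix. These mice were also females of 4 to 8 weeks. The study describes a cross to *Rag1*-deficient mice for its F5 and AND mice and not for the OT-I mice. For a test of the difference itself, 2 AND mice (with a class II-restricted transgenic TCR, *Rag1*-deficient, unsorted) and 2 MHCI-/- mice (*B2m*-/-, polyclonal, sorted as CD5+TCRβ+), also females of 4 to 8 weeks, were gated at the same thresholds.

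In the thymus, CD4+CD8+ double-positive (DP) cells test their TCR on peptides bound to MHC. A TCR that engages MHC class I with moderate strength gives signals that raise CD5 and CD69, and the cell then loses CD4, becomes a CD8 single-positive (SP) cell, lowers CD24 and gains survival and egress genes. Tonic interferon signals and cytokines acting through the IL-7 receptor accompany the late steps. Polyclonal thymi also hold unconventional αβ T cells, such as CD1d-restricted NKT cells, regulatory T cells and *Eomes*-high memory-like CD8 cells.

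The TCR segments followed the labels. *Trbv16*, the gene of the Vβ11 chain, gave 97.1% and 94.1% of the *Trbv* UMIs of the F5 mice, and the inverse Simpson number of *Trbv* segments was 1.06 and 1.13. In the MHCII-/- mice that number was 10.7 and 12.2, and the leading segment, *Trbv2*, held 21.0% and 17.7%. *Trav6-1* led the *Trav* UMIs of the F5 mice with 46.5% and 57.6%, although 27 and 28 *Trav* segments had a UMI. The antibody to Vβ5.1/5.2 marked 0 of 2121 and 0 of 3024 F5 cells, with exact 95% upper limits of 0.174% and 0.122%, and 181 of 1785 (10.1%, exact 95% interval 8.78 to 11.6) and 326 of 2911 (11.2%, 10.1 to 12.4) MHCII-/- cells. These intervals and limits cover counting error only. *Rag1* RNA was 5.65 and 22.4 CPM (UMIs per 1000000 RNA UMIs of the mouse) among F5 against 33.99 and 33.6 CPM among the MHCII-/- mice. The groups did not overlap, but the F5 mice differed widely and the gene was not called (log2 fold change -1.36 ± 0.63 (SE), adjusted p = 0.258 by edgeR's quasi-likelihood test). The sources do not state whether the UMIs of F5 cells lie in a part of *Rag1* that the allele keeps. All 5 αβ T cell markers were present in every mouse, with summed levels of 5016 and 4593 CPM in F5 and 4044 and 4055 CPM in MHCII-/- mice.

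The gated cells of a mouse held 11738074 to 22528824 RNA UMIs and 9111364 to 14872234 antibody UMIs. The F5 replicates were less alike than the MHCII-/- replicates (Pearson's r of log2 CPM across 11648 genes 0.975 and 0.993), and F5 replicate 1 is the only one of the 4 libraries with another title prefix. A pair of mice shared at most 3 gated barcodes. Markers of other cells also differed between the groups, and their part in the results was not tested. The 5 myeloid and dendritic markers summed to 237 and 199 CPM in F5 against 109 and 113 CPM in MHCII-/- mice, of which *Cst3* made up most. *Itgax* and *Siglech* had no UMI in either MHCII-/- mouse. The 4 B cell markers summed to 33.9 and 31.1 against 19.1 and 18.6 CPM, almost all *Cd79b*, and *Ms4a1* was at 0 in both F5 mice. Of 4 epithelial markers, which summed to 3.16 and 3.29 against 11.2 and 11.6 CPM, *Epcam* gave nearly all, and the 3 erythrocyte markers summed to at most 1.88 CPM.

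Most gated cells were DP cells in both groups, and the share was higher in F5 mice (77.7% and 80.2%) than in MHCII-/- mice (66.7% and 68.7%). CD4-CD8+ cells, called CD8 SP here, made up 21.97% and 18.7% of F5 cells and 25.8% and 24.1% of MHCII-/- cells, a difference of -4.63 percentage points that turned to 2.79 when the gate was raised to the 50th percentile. The name CD8 SP states the antibody gate alone. CD24 was higher in F5 cells of this gate, as given below, and whether these cells were less mature was not tested. CD4+CD8- cells were nearly missing from F5 mice (3 cells, 0.141%, and 6 cells, 0.198%) and made up 5.27% and 5.74% of MHCII-/- cells. CD4-CD8- cells were at 0.141% and 0.926% in F5 against 2.24% and 1.51% in MHCII-/- mice. The widest gap was in CD69, an early activation marker of signalled cells, which was on 8.37% and 10.6% of F5 CD8 SP cells and on 44.0% and 49.9% of MHCII-/- CD8 SP cells. It was on 22.04% and 29.7% of OT-I and on 43.8% to 54.2% of sorted wild-type CD8 SP cells. The CD69 threshold was set on CD8 SP cells of the same wild-type mice, so the wild-type share is not an independent reference. With 2 against 2 mice the exact two-sided permutation test cannot go below p = 0.333, which each of these shares reached.

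**Figure D1:**
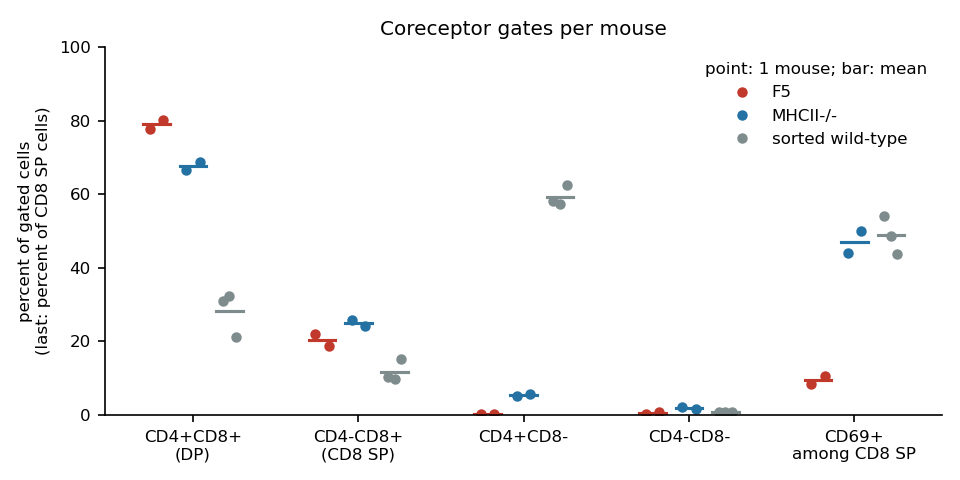
Percent of gated cells in each coreceptor gate and, last, percent of CD8 SP cells with CD69, for F5, MHCII-/- and sorted wild-type mice (points are mice, bars are means). The F5 points for CD69 lie at 8.37% and 10.6%, below every MHCII-/- and wild-type point. The gate thresholds were set on the wild-type mice.

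Of 11648 genes tested over all gated cells, 763 (6.55%) were lower and 387 (3.32%) higher in F5 than in MHCII-/- mice at an adjusted p below 0.05. The median log2 fold change of all genes was 0.00. The lists with the lowest medians were those of CD4 lineage, NKT, innate memory-like CD8 and interferon-stimulated genes, while myeloid and dendritic (1.64, 3 genes tested), cell cycle (0.92), B cell (0.68, 1 gene tested), preselection DP (0.34), γδ (0.24) and double-negative genes (0.21) had the highest medians. In bulk sums, fewer cells of a type and less RNA per cell cannot be told apart. The counts changed with the mice used. Without MHCII-/- replicate 2 only 138 genes were lower and 37 higher, whereas without F5 replicate 2 there were 2640 and 2485. Without F5 replicate 1, which leaves libraries of 1 title prefix, 2430 were lower and 2173 higher. Of the 67 named genes called, 30 passed under every alternative tried. Leaving out MHCII-/- replicate 1 ended 25 of these calls and leaving out replicate 2 ended 26, both times including those of *Ifit3*, *Mx1*, *H2-Q7*, *Ifngr1*, *Nfkbid*, *Irf4*, *Klrb1c*, *Zbtb7b*, *Il7r*, *Cish*, *Aqp11*, *Maf* and *Thy1*. Leaving out F5 replicate 1 ended 4 and leaving out F5 replicate 2 ended 3, both times including those of *Igfbp4* and *Gzma*. Without the gate 21 of the 67 lost their call, *Bcl2* and *Myc* among them, and 1 changed sign, and with the gate at the 50th percentile 10 did, *Xcl1* among them, and 1 changed sign.

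**Figure D2:**
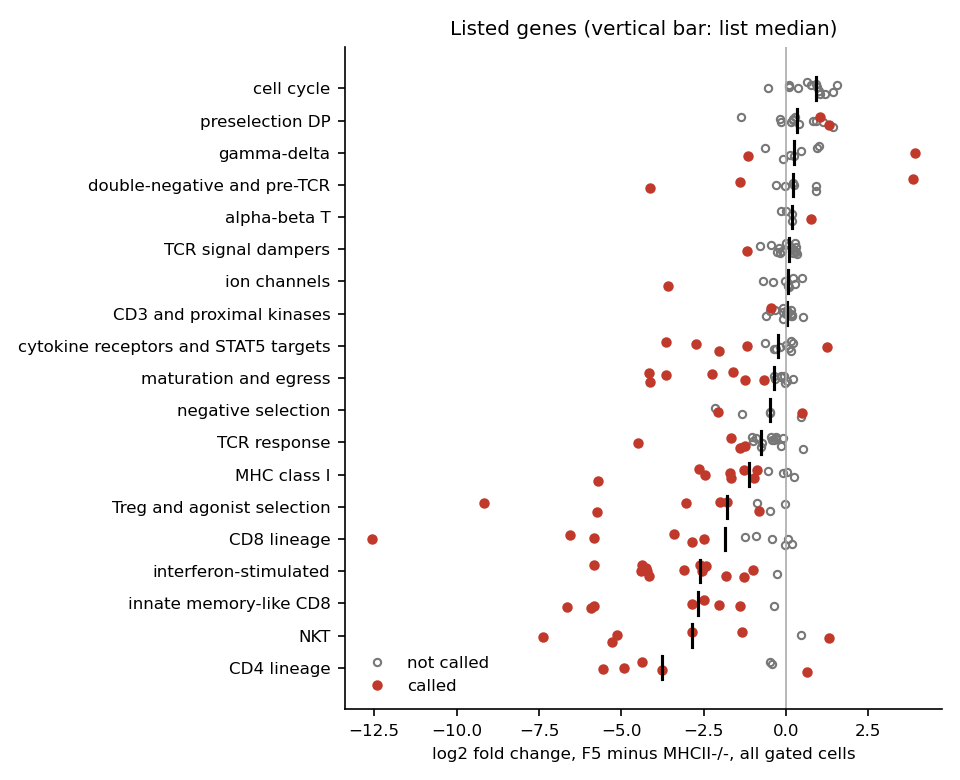
Log2 fold change of each tested gene of the lists (x axis, F5 minus MHCII-/-, all gated cells). Red points were called, open points were not, and vertical bars are list medians, which among the lists drawn, those with at least 5 tested genes, run from -3.78 for CD4 lineage genes to 0.92 for cell cycle genes. The fitted values of genes without UMIs in F5, such as *Xcl1* at the far left, depend on the prior count.

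Interferon-stimulated genes were lower in F5 thymocytes almost throughout. Of 15 tested, 14 fell, with a median log2 fold change of -2.62, against 6.55% of all genes. *Ifi27l2a*, a short interferon-induced membrane protein gene, was at 7.002 and 14.8 CPM in F5 against 581 and 584 CPM in MHCII-/- mice (log2 fold change -5.84 ± 0.41 (SE), adjusted p = 0.00541). *Rtp4* was at 3.69 and 5.72 against 77.4 and 89.6 CPM (log2 fold change -4.26 ± 0.24 (SE), adjusted p = 0.00291). *Ifit3*, which encodes an RNA-binding antiviral protein, was at 0.226 and 1.64 against 19.8 and 18.5 CPM, and the antiviral GTPase gene *Mx1* at 0 and 0.227 against 2.897 and 2.35 CPM. The F5 values lay below the MHCII-/- values in each of these genes. *Stat2*, a factor that acts below the interferon receptors, was the 1 listed gene that did not pass, at 13.02 and 13.9 against 15.6 and 14.3 CPM. *Ifngr1*, a chain of the interferon-γ receptor, was higher in F5 mice (223 and 268 against 101 and 89.04 CPM, log2 fold change 1.24 ± 0.15 (SE), adjusted p = 0.0119). Leaving out 1 MHCII-/- mouse kept 6 or 8 of the list called, and leaving out 1 F5 mouse kept 14.

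Promoters of interferon-stimulated genes often carry the interferon-stimulated response element, and 3 of this list are shown for that reason. The RefSeq table of promoters (GRCm38.p6, 250 bases before to 50 after the start) held 9 of the 15 genes. The core, GAAA followed after 2 bases by a second GAAA, searched on both strands with overlaps allowed, was in 5 of these 9 (55.6%), in 3 of 10 class I list genes, in 333 of 8675 tested genes (3.84%) and in 1079 of all 27025 promoters (3.99%). The list was made of interferon-stimulated genes, so its share describes the list and is not a result of these data. The 5 genes with the core include *Stat2* (log2 fold change -0.28), the listed gene that did not pass. Below are stretches of the 3 list genes with the core and the lowest log2 fold changes, 5′ to 3′ on the strand of the gene, with the matches in capitals.
Ifit3: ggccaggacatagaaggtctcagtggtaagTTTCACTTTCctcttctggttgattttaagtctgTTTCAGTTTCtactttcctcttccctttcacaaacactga
Ifit1: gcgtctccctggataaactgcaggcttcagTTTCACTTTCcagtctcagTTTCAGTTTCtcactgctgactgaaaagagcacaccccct
Isg15: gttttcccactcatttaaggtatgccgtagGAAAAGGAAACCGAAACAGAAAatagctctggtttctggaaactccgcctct
They lie at chr19:34583343-34583446 (plus strand), chr19:34640755-34640843 (plus strand) and chr4:156200845-156200926 (minus strand). *Ifit3* and *Ifit1* have 2 matches each, read on the opposite strand, and *Isg15* has 3 that overlap. A match describes the letters of the window and shows no binding.

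MHC class I genes fell with them. Of the 12 tested, 8 were lower in F5 mice and the list's median was -1.13. *H2-K1*, a classical class I heavy chain, was at 193 and 194 against 971 and 959 CPM (log2 fold change -2.45 ± 0.09 (SE), adjusted p = 0.00094), *B2m*, the light chain, at 466 and 427 against 996 and 976 CPM (log2 fold change -1.28 ± 0.083 (SE), adjusted p = 0.00331), and *Nlrc5*, the class I transactivator, at 4.44 and 4.25 against 25.5 and 24.5 CPM (log2 fold change -2.66 ± 0.14 (SE), adjusted p = 0.00252). The 2 F5 mice were close to each other in all 3 genes and far below the MHCII-/- mice. *H2-Q7*, a nonclassical heavy chain, was at 0.376 and 3.97 against 125 and 101 CPM, and it did not pass with either MHCII-/- mouse left out (log2 fold change -5.59 and -5.88). The peptide transporter gene *Tap1* fell (log2 fold change -0.89), while *Tap2* (0.23), *H2-T23* (0.02) and the immunoproteasome genes *Psmb8* (-0.09) and *Psmb9* (-0.54) did not pass. The H2-K, H2-D, H2-Q and H2-T genes are near-identical in parts, and how reads shared among them were counted bears on single members.

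**Figure D3:**
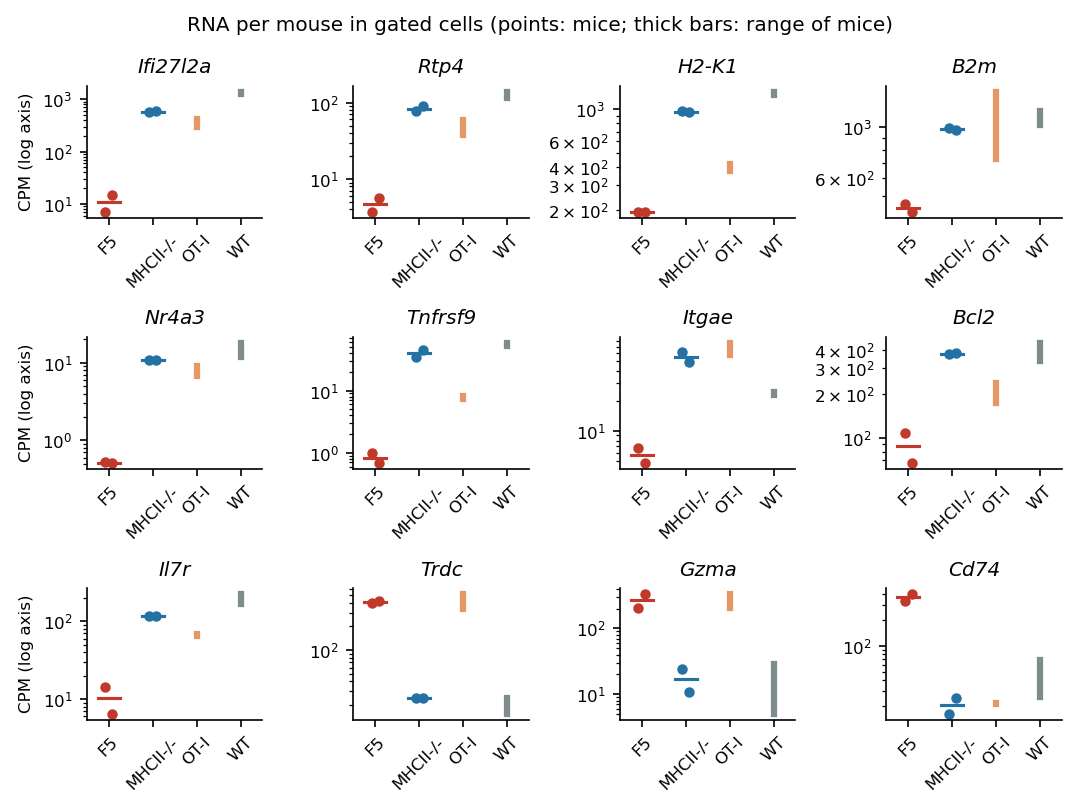
CPM (log axes) of 12 genes in gated cells. Points are the F5 and MHCII-/- mice with the mean as a line, and thick bars span the 2 OT-I and the 3 sorted wild-type (WT) mice. In *Ifi27l2a*, *Rtp4*, *H2-K1*, *B2m*, *Nr4a3*, *Tnfrsf9*, *Itgae*, *Bcl2* and *Il7r* both F5 mice lie below all the others, in *Cd74*, whose call was lost with the protein filters, above all the others, and in *Trdc* and *Gzma* F5 and OT-I mice lie together above MHCII-/- and WT.

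Genes that answer TCR signals were lower in part. Of 18 tested, 4 fell and the median was -0.75. *Nr4a3*, a nuclear receptor induced by TCR signals, was at 0.527 and 0.5098 CPM in F5 against 10.7 and 10.9 CPM in MHCII-/- mice (log2 fold change -4.49 ± 0.24 (SE), adjusted p = 0.00252), and OT-I mice had 6.79 and 8.97 CPM. *Myc* was at 18.2 and 21.9 against 58.6 and 57.9 CPM (log2 fold change -1.67 ± 0.14 (SE), adjusted p = 0.00567), and the NF-κB regulator gene *Nfkbid* and *Irf4* fell by 1.25 and 1.40 on the log2 scale, but the call of *Irf4* was lost under 8 alternatives, DESeq2, doublet removal and both other gates among them. *Nr4a1* (32.4 and 14.95 against 56.1 and 51.7 CPM), *Egr1* (114 and 58.8 against 101 and 90.7 CPM) and *Cd69* (85.3 and 40.6 against 113 and 114 CPM) did not pass, and the F5 mice differed from each other in all of them. Of 16 CD3 and proximal kinase genes 1 fell, and of 17 dampers *Socs1* (-1.17) fell, shares near the 6.55% of all genes, with list medians of 0.03 and 0.08. Of 10 ion channel genes, *Tmie* fell, from 18.7 and 15.4 CPM in MHCII-/- to 2.11 and 1.08 CPM in F5 mice (log2 fold change -3.58 ± 0.31 (SE), adjusted p = 0.00594).

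Of 12 CD8 lineage genes tested 6 fell, with a median of -1.86. *Cd8a* (762 and 837 against 701 and 712 CPM) and *Cd8b1* (860.5 and 940.2 against 839.7 and 832 CPM) did not pass, and their signs turned with 1 F5 mouse left out. *Xcl1*, the chemokine that attracts cross-presenting dendritic cells, had no UMI in either F5 mouse and 41.8 and 47.2 CPM in the MHCII-/- mice, at least 468-fold higher by the limit of 3 UMIs over the F5 group. It was also low in OT-I (0.109 and 0.3503 CPM) and at 11.3 to 35.2 CPM in wild-type mice. *Itgae*, the αE integrin chain CD103, was at 6.701 and 4.76 against 61.3 and 49.4 CPM (log2 fold change -3.42 ± 0.20 (SE), adjusted p = 0.00291). *Eomes* was at 0.301 and 0.0566 against 8.86 and 9.099 CPM (log2 fold change -5.84 ± 0.48 (SE), adjusted p = 0.00541) and *Ly6c2* at 0.0753 and 0.5098 against 27.9 and 31.9 CPM (log2 fold change -6.64 ± 0.45 (SE), adjusted p = 0.00373), and both were among the 7 of 8 innate memory-like genes that fell (median -2.67). *Cxcr3* was at 0.226 and 0.0566 against 9.797 and 5.86 CPM. The OT-I mice had *Eomes* and *Cxcr3* at 1.204 and 1.31 and at 0.0876 and 0.328 CPM.

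Over all gated cells, several genes of other αβ lineages were present in MHCII-/- and near 0 in F5 mice. *Foxp3*, which defines regulatory T cells, had no UMI in F5 against 5.79 and 2.89 CPM in MHCII-/- mice, at least 40.0-fold higher by the same limit. *Zbtb16*, which encodes the NKT factor PLZF, had 1 UMI in F5 against 7.75 and 4.79 CPM in MHCII-/- mice (ratio 180, exact 95% interval 31.9 to 7131 for the counting error of the pooled UMIs alone, as for each such ratio here), and *Klrb1c* was at 0.301 and 0 against 5.54 and 3.46 CPM. Among NKT genes 5 of 7 fell and 1 rose, and among 9 regulatory and agonist selection genes 6 fell, among them *Foxp3* and *Tnfrsf9* (0.979 and 0.6798 against 34.4 and 45.3 CPM, log2 fold change -5.74 ± 0.26 (SE), adjusted p = 0.00195). *Tnfrsf4* was at 2.33 and 1.81 against 16.1 and 15.1 CPM. The CD4 lineage list fell in 4 of 7 genes, and *Gata3* rose (log2 fold change 0.63). *Zbtb7b*, which encodes the CD4 lineage factor ThPOK, had 3 UMIs in F5 against 2.3002 and 3.42 CPM in MHCII-/- mice (ratio 31.3, 10.4 to 154), and *Cd40lg* was at 1.28 and 0.623 against 19.4 and 15.6 CPM (log2 fold change -4.37 ± 0.32 (SE), adjusted p = 0.00465). CD4+CD8- cells made up at most 0.198% of F5 and at least 5.27% of MHCII-/- gated cells, and their part in these lists was not tested. Within DP cells, a gate that leaves them out, 5 of 6 CD4 lineage genes tested were lower in F5 mice (median -2.16). There 6 of 9 regulatory and agonist selection genes fell (-1.22), and of 6 NKT genes 3 fell and 1 rose (-1.50). *Pdcd1*, which encodes PD-1, was at 17.3 and 14.6 against 57.9 and 62.6 CPM (log2 fold change -2.06 ± 0.12 (SE), adjusted p = 0.00291), and of 7 negative selection genes it fell and *Trp53inp1* rose (131 and 136 against 85.5 and 87.7 CPM), the latter with its call lost under 7 alternatives.

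The maturation and egress list divided. *Il7r*, the IL-7 receptor α chain, was at 14.3 and 6.401 against 117 and 116 CPM (log2 fold change -3.65 ± 0.36 (SE), adjusted p = 0.00999), the survival gene *Bcl2* at 108 and 66.96 against 376 and 378 CPM (log2 fold change -2.25 ± 0.22 (SE), adjusted p = 0.0073) and the quiescence gene *Slfn1* at 4.97 and 3.17 against 69.7 and 61.9 CPM (log2 fold change -4.17 ± 0.21 (SE), adjusted p = 0.00225). *Samhd1*, a dNTP hydrolase, was at 8.88 and 4.31 against 108 and 98.6 CPM. With *Ccr7*, *Gimap4* and *Ms4a4b*, 7 of 15 fell. The egress genes proper did not pass, with *Klf2* at 589 and 317 against 357 and 358 CPM and *S1pr1* at 76.6 and 58.1 against 66.7 and 57.7 CPM. Of 14 cytokine receptor and STAT5 target genes 4 fell, *Cish* among them (1.51 and 0.623 against 6.47 and 5.99 CPM), and *Ifngr1* rose.

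Early thymocyte genes were higher in F5 mice in part. Of 14 preselection DP genes 2 rose, among them *Aqp11* (68.2 and 75.1 against 32.2 and 31.6 CPM, log2 fold change 1.04 ± 0.12 (SE), adjusted p = 0.0105), which was at -0.058 without the gate. *Dntt*, which encodes terminal transferase, was at 174 and 416 against 108 and 93.5 CPM and *Arpp21* at 77.9 and 145 against 51.7 and 43.01 CPM, and neither passed. Both were above the MHCII-/- mice in each F5 mouse but far apart between the F5 mice. Of 13 cell cycle genes, 12 had a positive log2 fold change and none passed with edgeR (2 at an unadjusted p below 0.05, 1 with DESeq2). Their calls depended on the F5 mouse, since 9 were higher without F5 replicate 1 and 4 lower without F5 replicate 2.

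*Trdc*, the constant gene of the TCR δ chain, was at 401 and 418 CPM in F5 against 24.8 and 24.9 CPM in MHCII-/- mice (log2 fold change 3.91 ± 0.11 (SE), adjusted p = 0.000829), and at 329 and 517 CPM in OT-I mice. Of the 9 γδ genes tested over all gated cells, *Trdc* was the 1 that passed on the higher side. *Sox13*, a γδ lineage factor, was at 0.828 and 2.27 against 1.28 and 1.38 CPM, *Blk* at 3.31 and 2.04 against 0.682 and 1.598 CPM and *Tcrg-C1* at 9.71 and 9.91 against 8.604 and 6.66 CPM. *Gzma*, a granzyme gene on the double-negative list, shared the pattern of *Trdc* (201.9 and 333 against 23.9 and 10.7 CPM, log2 fold change 3.86 ± 0.50 (SE), adjusted p = 0.0185), with 202.3 and 332 CPM in OT-I mice. Its call was lost with either F5 mouse left out, without the gate, with the replicate block and without a low-count filter. *Maf*, on the γδ list, was lower (5.04 and 3.46 against 8.69 and 8.43 CPM), and its log2 fold change turned to 0.13 with the gate at the 50th percentile.

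The largest increases lay outside the lists. Class II genes were higher in F5 mice, with *H2-Ab1*, the gene deleted in MHCII-/- mice, at 123 and 158 against 8.18 and 7.46 CPM (log2 fold change 4.05 ± 0.19 (SE), adjusted p = 0.00195), *H2-Eb1* at 96.5 and 130.0 against 0.426 and 0.7102 CPM, *H2-Aa* at 135 and 120.1 against 0 and 1.46 CPM and the invariant chain *Cd74* at 335 and 399 against 16.3 and 24.8 CPM (log2 fold change 4.01 ± 0.25 (SE), adjusted p = 0.00329). Sorted wild-type mice, which carry *H2-Ab1*, had 0.864 to 14.3 and 25.9 to 68.97 CPM of *H2-Ab1* and *Cd74*, so the F5 mice also lay above them. The MHCII-/- values of *H2-Ab1* lay within the wild-type range, so this RNA does not show the deletion. The sources do not state which part of the gene the allele removes. These calls did not hold under every cell filter. With the study's protein filters added (1000 to 10000 antibody UMIs and at least 70 antibodies per cell), which kept 1970 and 2955 F5 and 1710 and 2834 MHCII-/- cells, none of the 4 passed. Their log2 fold changes were then 1.24 for *H2-Ab1* (adjusted p = 0.433), 4.17 for *H2-Eb1* (0.164), 3.68 for *H2-Aa* (0.191) and 0.88 for *Cd74* (0.666). The call of *H2-Aa* was also lost without F5 replicate 1, without a low-count filter and with the replicate block, and that of *Cd74* with the gate at the 50th percentile. *Lyz2*, a lysozyme gene of myeloid cells, was also higher (21.2 and 26.2 against 1.45 and 2.53 CPM, log2 fold change 3.38 ± 0.30 (SE), adjusted p = 0.00606), and with the same protein filters it was at 0.89 (adjusted p = 0.300) and *Cst3* at 0.31 (0.121), neither called. *H2-Eb1* and *H2-Aa* lost their calls there but kept large fold changes. The part of myeloid cells in the class II genes was not tested. *Rnaset2b* was at 161 and 107 against 3.92 and 3.82 CPM (log2 fold change 4.97 ± 0.23 (SE), adjusted p = 0.00195). There the MHCII-/- mice stood apart, as wild-type mice had 97.4 to 120.2 CPM. *Rnaset2b* has a near-identical copy, *Rnaset2a*, so its level is uncertain.

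*Amd1*, which encodes adenosylmethionine decarboxylase of polyamine synthesis, was at 1776 and 2113 CPM in F5 against 40.8 and 36.9 CPM in MHCII-/- mice, a 50.05-fold ratio of the means (log2 fold change 5.52 ± 0.16 (SE), adjusted p = 0.000829). OT-I mice had 34.6 and 107, wild-type mice 27.1 to 45.01, and the other *Rag1*-deficient TCR transgenic of the series, AND, 93.1 and 36.0 CPM, so the F5 mice stood alone. *Amd1* lies at chr10:40287458-40302186 (mm10, minus strand). The neighbouring kinase gene *Cdk19* was at 131 and 175 against 24.4 and 22.1 CPM (log2 fold change 2.60 ± 0.19 (SE), adjusted p = 0.00464). Its antisense transcript *Cdk19os* (chr10:40348508-40350103, minus strand) was at 181 and 242 CPM in F5 mice and had 3 UMIs in the MHCII-/- mice (ratio 2463, exact 95% interval 842 to 11945, counting error of the pooled UMIs only). Of 15 genes tested from 1 Mb before *Amd1* to 1 Mb after *Cdk19*, these 3 and *Mical1* (115 and 90.07 against 60.7 and 54.1 CPM) were higher. The nearest tested genes on the other side, *Gtf3c6* (38.2 and 50.1 against 59.5 and 62.5 CPM) and *Rpf2* (42.5 and 47.3 against 55.8 and 49.6 CPM), did not pass. *Amd1* has a near-identical copy, and the sources do not state whether reads were counted by strand, so *Cdk19os* and *Cdk19* cannot be told apart where they overlap. *Gm10800*, a gene model on chromosome 2, was at 45.3 and 37.9 CPM in F5 mice and had 2 UMIs in MHCII-/- mice (ratio 704, 194 to 5819).

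**Figure D4:**
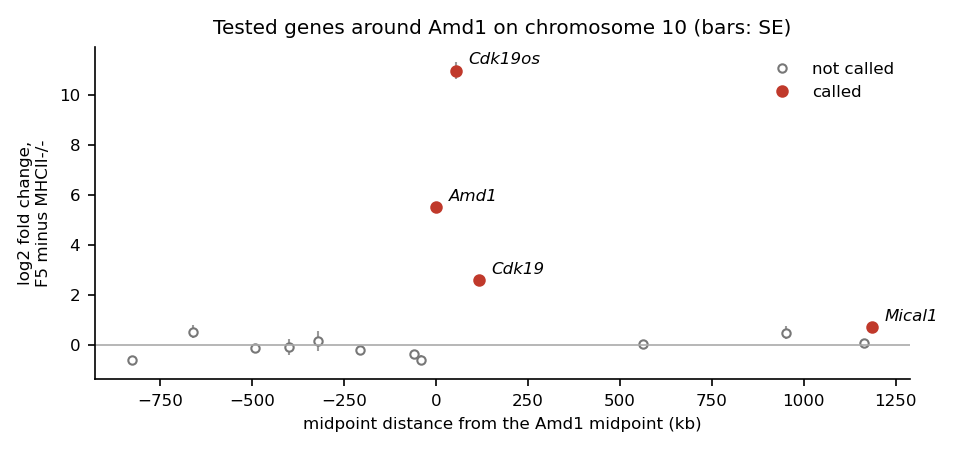
Log2 fold change (y axis, F5 minus MHCII-/-, bars are SE) of the 15 tested genes around *Amd1* against the distance of their midpoints from that of *Amd1* in kb. *Amd1* at 5.52, *Cdk19* at 2.60 and *Cdk19os*, whose fitted value depends on the prior count, stand above the rest, which lie between -0.60 and 0.70.

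Of the largest decreases, *Nrgn*, which encodes the calmodulin-binding neurogranin, was at 3.16 and 1.25 against 134 and 148 CPM (log2 fold change -6.18 ± 0.36 (SE), adjusted p = 0.00291), *Tspan9*, a tetraspanin, at 0.527 and 0.566 against 24.3 and 25.3 CPM (log2 fold change -5.61 ± 0.20 (SE), adjusted p = 0.00094) and *Igfbp4* at 4.07 and 1.93 against 109 and 75.1 CPM (log2 fold change -5.11 ± 0.37 (SE), adjusted p = 0.00515). *Igfbp4* was at 158 and 166 CPM in OT-I and 297 to 454 CPM in wild-type mice. *Nrgn* was also low in OT-I mice (3.72 and 5.91 CPM), whereas *Tspan9* was not (14.2 and 16.5 CPM).

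Among the 111 antibodies, 21 (18.9%) were lower and 13 (11.7%) higher in F5 mice. This split depended on scaling, since scaling to the antibody total in place of TMM, which moved the median by 0.14 log2, gave 17 lower and 26 higher (60.5% of calls higher, against 38.2%). CD69 was at 13.5 and 12.5 UMIs per 10000 antibody UMIs in F5 against 52.98 and 57.4 in MHCII-/- mice (log2 fold change -2.23 ± 0.12 (SE), adjusted p = 0.000197). CD86, a costimulatory ligand, was at 5.16 and 5.14 against 21.4 and 21.2 (log2 fold change -2.19 ± 0.11 (SE), adjusted p = 0.000197) and the adhesion receptor CD54 at 7.26 and 7.19 against 22.8 and 24.5 (log2 fold change -1.86 ± 0.098 (SE), adjusted p = 0.000197). CD127, the product of *Il7r*, was at 3.62 and 3.68 against 8.01 and 8.84, and CD103, the product of *Itgae*, at 49.03 and 41.4 against 82.7 and 76.3. Integrin β7, PD-L1, ICOS, Ly-6C and CD4 were also lower, but CD103, integrin β7, ICOS and Ly-6C were not called with the gate at the 50th percentile, without the gate or with a shared spread, nor CD4 in the last 2 settings, nor PD-L1 without the gate. On the higher side, I-A/I-E (class II) was at 34.4 and 32.3 against 2.29 and 2.36 (log2 fold change 3.70 ± 0.096 (SE), adjusted p = 1.90e-05), and here the wild-type mice, at 44.04 to 84.8, were above F5. CD24, which falls as thymocytes mature, was at 213 and 174 against 118 and 109 (log2 fold change 0.62 ± 0.13 (SE), adjusted p = 0.0191), but its call was lost under 7 alternatives, RLE scaling and each MHCII-/- mouse left out among them. CD8a, at 781 and 728 against 526 and 529.9, and CD8b, at 1296 and 1199.9 against 855 and 808, were higher (log2 fold change 0.37 and 0.44), but turned to -0.26 and -0.28 without the gate, and neither was called with RLE scaling, with a shared spread or without MHCII-/- replicate 2, nor CD8a with the replicate block or without MHCII-/- replicate 1. CD90.2 was at 555 and 459 against 250.4 and 234, alongside its gene *Thy1* (651 and 492 against 319.6 and 290.2 CPM), and the transferrin receptor CD71 at 57.04 and 48.99 against 25.8 and 26.5. The call of CD90.2 was lost without the gate and with a shared spread, and that of CD71 with the gate at the 50th percentile, with either MHCII-/- mouse left out and with a shared spread. CD20, NKp46, F4/80 and CD115, markers of B, NK and myeloid cells, were higher too, CD20 at 19.996 and 16.7 against 4.94 and 4.96, while *Ms4a1*, the gene of CD20, was at 0 in both F5 mice. The calls of F4/80 and CD115 were lost with either MHCII-/- mouse left out, that of CD115 also with the protein filters, and those of NKp46 and F4/80 without the gate. CD5 and TCRβ chose the cells and are given without a test, CD5 at 2001 and 1543 against 1442 and 1476 and TCRβ at 107 and 90.3 against 77.5 and 79.7.

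**Figure D5:**
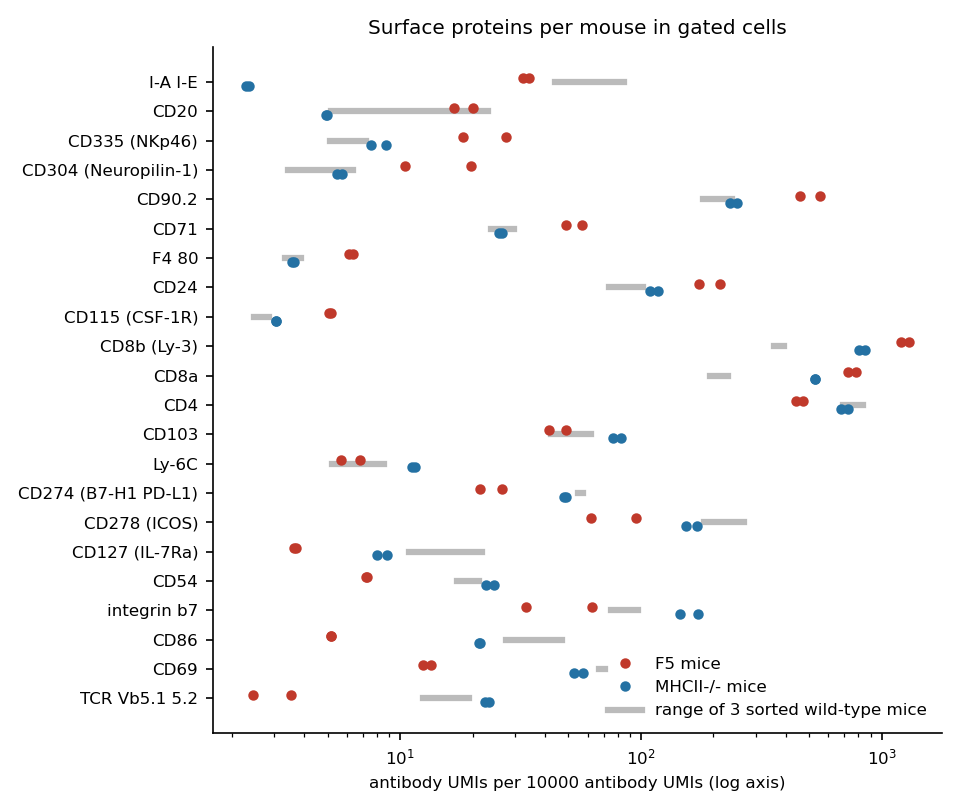
Antibody UMIs per 10000 antibody UMIs (log axis) in gated cells for the named antibodies other than CD5 and TCRβ, ordered by log2 fold change. Red and blue points are F5 and MHCII-/- mice and grey bars the range of 3 sorted wild-type mice. CD69, CD86 and CD54 show both F5 mice below both other groups, and CD90.2 and CD71 above them.

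Within DP cells, 536 of 11238 genes (4.77%) were lower and 355 (3.16%) higher, and 13 (11.7%) antibodies were lower and 10 (9.01%) higher. The interferon-stimulated list fell in 12 of 15 genes (median -2.31), the class I list in 7 of 12 (-0.77) and the TCR response list in 5 of 18 (-0.89). *Amd1* was at 1868 and 2232 against 38.1 and 33.5 CPM and *Tnfrsf9* at 1.28 and 0.648 against 31.02 and 49.8 CPM (log2 fold change -5.49 ± 0.39 (SE), adjusted p = 0.0028). Among antibodies CD69 was at 14.05 and 12.7 against 59.6 and 63.4 (log2 fold change -2.41 ± 0.13 (SE), adjusted p = 0.00144) and CD127 at 3.33 and 3.51 against 6.895 and 8.002. CD24 (225 and 182 against 147 and 132), integrin β7 and Ly-6C did not pass in DP cells, and for integrin β7 and Ly-6C the groups overlapped.

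CD8 SP cells (466 and 565 F5, 461 and 701 MHCII-/- cells) had 1021 of 9793 genes (10.4%) lower and 733 (7.48%) higher, and 23 (20.7%) antibodies lower and 16 (14.4%) higher. Class I genes fell in 11 of 12 (median -1.58), with *H2-K1* at 322 and 386 against 1622 and 1665 CPM (log2 fold change -2.43 ± 0.12 (SE), adjusted p = 9.70e-06) and *B2m* at 506 and 528 against 1401 and 1398 CPM, and interferon-stimulated genes in 12 of 15 (-3.18), with *Ifi27l2a* at 6.301 and 16.9 against 1036 and 1061 CPM. All 7 tested innate memory-like genes fell (-2.03), among them *Eomes* (0.995 and 0.324 against 19.95 and 20.9 CPM), and *Hopx*, a homeobox gene, was at 0 and 0.324 against 21.9 and 20.7 CPM. *Xcl1* again had no UMI in F5, against 64.8 and 93.9 CPM (at least 170-fold higher in MHCII-/-). CD8 lineage genes fell in 5 of 11 (-0.95), with *Cst7* higher, and TCR response genes in 3 of 17 (-0.23). Of the 7 NKT genes 3 were tested here, and 2 rose (median 2.40), among them *Il17rb*, which is also on the γδ list. Of 4 CD4 lineage genes *Gata3* (79.6 and 81.7 against 25.2 and 28.4 CPM) and *Tox* (217 and 224 against 151 and 145 CPM) rose and *Tnfsf8* fell (median 0.36). The class I, interferon-stimulated and innate memory-like genes were thus lower in cells below the CD4 antibody threshold as well as in the sum of all gated cells.

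Preselection DP genes were higher in F5 CD8 SP cells in part. Of 13 tested 7 rose (median 1.02) and 12 had a positive log2 fold change, with *Arpp21* at 46.1 and 57.7 against 4.77 and 3.52 CPM (log2 fold change 3.47), *Dntt* at 107 and 188 against 20.8 and 13.7 CPM (2.93) and *Cd24a* at 38.1 and 54.8 against 8.68 and 17.3 CPM (1.56). *Rag1*, a fixed check, was below 0 and not called. Its sign turned without F5 replicate 1 and with thresholds divided by 1.5. In protein, CD24 was at 169 and 126 against 34.1 and 37.3 (log2 fold change 1.87 ± 0.19 (SE), adjusted p = 1.07e-05), and CD28 at 78.04 and 55.02 against 17.9 and 20.2. CD4, which set the gate, is given without a test, at 63.96 and 64.95 against 35.6 and 42.3. Wild-type CD8 SP cells had CD24 at 50.7 to 73.3. Lower were CD86 (4.68 and 4.87 against 41.3 and 46.6, log2 fold change -3.37 ± 0.17 (SE), adjusted p = 6.31e-08), integrin β7 (155 and 101 against 507 and 465) and CD103 (78.4 and 65.3 against 184 and 175). Of 7 γδ genes 6 rose here (median 2.51), with *Trdc* at 352 and 337 against 9.76 and 16.2 CPM, *Tcrg-C1* at 17.9 and 11.7 against 2.82 and 1.701 CPM and *Il17rb* at 12.3 and 10.7 against 0.868 and 1.46 CPM, and *Sox13* and *Blk* were too low to be tested. *Mgl2*, a lectin gene of dendritic cells and macrophages, was at 15.3 and 33.4 CPM in F5 CD8 SP cells and had no UMI in MHCII-/- ones (at least 105-fold), *Cd74* was at 435 and 804 against 10.4 and 19.8 CPM, and *Lyz2* at 21.2 and 74.9 against 0.868 and 0.607 CPM. The 5 myeloid and dendritic markers summed to 210 and 239 against 84.6 and 92.5 CPM in these cells, and their part in the class II genes was not tested. The protein filters were not run within CD8 SP cells.

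Since CD69+ cells were fewer in F5 mice, CD8 SP cells were also split by CD69. Among CD69+ cells (39 and 60 F5, 203 and 350 MHCII-/- cells), 486 of 7805 genes (6.23%) were lower and 267 (3.42%) higher. Among CD69- cells, 948 of 9359 (10.1%) were lower and 643 (6.87%) higher. Interferon-stimulated genes fell in 8 of 13 CD69+ (median -2.31) and 12 of 15 CD69- genes tested (-3.41), and class I genes in 10 of 12 in each. Preselection genes rose in 3 of 11 and in 9 of 13. TCR response genes fell in 1 and rose in 1 of 14 in CD69+ (-0.37) and fell in 1 of 14 in CD69- cells (-0.11). Of 13 cell cycle genes, 7 fell in CD69+ cells (-2.57), while 2 rose and 1 fell in CD69- cells (-0.18), and the difference between these was not tested. The CD69 antibody chose the CD69+ cells, and its level in them is given without a test, at 34.9 and 34.7 in F5 against 63.4 and 66.99 in MHCII-/- mice. CD24 was at 167 and 126 against 21.2 and 19.2 among CD69- cells (log2 fold change 2.66 ± 0.19 (SE), adjusted p = 8.45e-06).

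The CD4-fated genotypes allowed the difference to be set against a like one. AND and MHCI-/- mice differ in the number of TCRs, *Rag1* and the sort as F5 and MHCII-/- mice do, and share no library with them. The paper gives different source strains for the AND, F5 and *B2m*-/- lines, so strain background may also differ between the contrasts. F5 replicate 1 and AND replicate 1 carry 1 title prefix and the other mice of this test another. AND replicate 2 had a median of 971 antibody UMIs per gated cell, against 2157.5 to 6659 in the other mice. The gate thus rested on fewer UMIs there, and 1593 of its 3638 gated cells passed the protein filters. The interaction, (F5 minus MHCII-/-) minus (AND minus MHCI-/-), was called for 145 of 12035 genes, 94 (0.781%) below 0 and 51 (0.424%) above. *Ifi27l2a* was at 328 and 383 CPM in AND against 1693 and 1256 CPM in MHCI-/- mice, a log2 fold change of -2.11 against -5.84 for F5, and the interaction was -3.72 ± 0.45 (SE, adjusted p = 0.0162). *Rtp4* and *H2-K1* also had called interactions, of -2.18 and -1.23. All 3 calls were lost with any 1 of the 4 polyclonal mice left out, and that of *Ifi27l2a* also with the replicate block. *Slfn1*, at 155 and 152 CPM in AND against 190 and 182 CPM in MHCI-/- mice, had an interaction of -3.82 ± 0.23 (SE, adjusted p = 0.000237). *Ifit3* (-4.06 in AND), *Tnfrsf4* (-3.07), *Nr4a3* (-3.20) and *Trdc* (3.73) differed from the polyclonal mice in both lineages, and their interactions did not pass (-0.28, 0.03, -1.28 and 0.19). *Amd1* (5.00, lost with any 1 polyclonal mouse left out) and *Rnaset2b* (5.06, called under every alternative) were called, and neither differed between AND and MHCI-/- mice by the same test (0.53 and -0.07). For *Rnaset2b*, AND mice had 120 and 116 CPM and MHCI-/- mice 132 and 106 CPM. *H2-Ab1* was higher in AND than in MHCI-/- mice (40.7 and 41.9 against 1.25 and 1.48 CPM), and its interaction of -0.79 did not pass. Without 1 mouse in turn the calls below 0 ran from 9 to 222 and those above 0 from 4 to 135, each lowest without MHCI-/- replicate 2, and the highest counts came without F5 replicate 1 or 2.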

How the data were processed

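Single-cell RNA and antibody UMI counts per lane were deposited by the authors as filtered Cell Ranger (3.1.0) matrices on mm10 (GRCm38), without normalization, over 28692 genes and 111 antibodies. The 3 hashtag features were not used. Each lane held 1 mouse. Thymocytes passing the RNA filters and the CD5 and TCRβ gate were summed per mouse. Coreceptor gates were set at 139 (CD4), 82.7 (CD8a) and, for CD69, 24.3 UMIs per 10000 antibody UMIs, and Vβ5+ cells at 50. Doublets were kept. For the alternative without them, the cells with the highest Scrublet scores (scanpy 1.11.5) were taken as doublets. Their number was preset at 0.8% of a lane's filtered cells per 1000 barcodes, and 55 to 165 of them per mouse were gated cells.

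Sums were tested with the quasi-likelihood test of edgeR 4.0.16 (R 4.3.3) with TMM scaling, its low-count filter and Benjamini-Hochberg adjustment over all features, at an adjusted p below 0.05. CPM are unscaled by TMM. Log2 fold changes are F5 minus MHCII-/-, after TMM, and SEs were derived from the F statistic. With 2 mice a group, each p rests on the spread between these mice. Genes were named as the called genes of each list with the largest change (up to 4), the largest called changes outside receptor segments at 20 CPM or more (up to 8 each way), fixed checks, and antibodies by a like rule. Listed genes that did not pass, and neighbours of *Amd1*, were named after their values were seen. The comparison and gene lists were chosen with earlier results of these data known. Some genes are on more than 1 list, so the counts of different lists are not independent. On simulated counts for the main comparison, 49.0% of 98 2-fold and 93.9% of 98 4-fold changes were recovered, with 30 false calls among 11648 genes. These false calls were a larger share of all calls than the 0.05 level. The simulation drew both groups with 1 spread per gene, whereas the F5 replicates were less alike than the MHCII-/- replicates. Same-numbered mice of the 2 groups did not deviate together (r = -0.0913 across genes), so the replicate number was not used as a pair. Alternatives were DESeq2 1.42.0, other scaling, filters, gates and thresholds, the replicate block, a spread shared with AND and MHCI-/- mice, and leaving out each mouse. Some listed genes and 1 antibody are not reported here by name.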

Additional observations from a re-analysis of the deposited data

Results flagged for a closer look

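For 25 named genes, the difference of F5 from MHCII-/- mice was itself different from that of AND from MHCI-/- mice by the interaction term of edgeR's quasi-likelihood test, given here in log2 units. The 2 contrasts differ in lineage, transgene, deleted gene and the source strains of the lines, whose parts cannot be told apart. Only *Rnaset2b*, *Slfn1*, *Myo6*, *Lmna* and *B2m*, 5 of the 25, passed under every alternative tried. For 17 of the 25, *Itgae*, *Igfbp4*, *Maf*, *Ifi27l2a*, *Rtp4*, *H2-K1* and *Amd1* among them, the call was lost with any 1 of the 4 polyclonal mice left out, and *Itgae* and *Igfbp4* were also lost with either F5 mouse left out.

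*Itgae* was at 6.70 and 4.76 CPM in F5, 61.3 and 49.4 in MHCII-/-, 20.3 and 4.63 in AND and 1.48 and 0.741 CPM in MHCI-/- mice, and the difference between the contrasts was -6.80. *Igfbp4* was at 4.07 and 1.93 CPM in F5, 109 and 75.1 in MHCII-/-, 692 and 225 in AND and 364 and 426 CPM in MHCI-/- mice, and the difference between the contrasts was -5.23. *Maf* was at 5.04 and 3.46 CPM in F5, 8.69 and 8.43 in MHCII-/-, 54.7 and 26.6 in AND and 4.36 and 3.03 CPM in MHCI-/- mice, and the difference between the contrasts was -4.53. CD4-lineage and related genes below 0 were *Zbtb7b* (-4.85), *Cd40lg* (-3.68), *Tnfsf8* (-2.08) and *St8sia6* (-5.90), and since *Zbtb7b* had 3 UMIs and *St8sia6* 1 UMI in F5 mice, their fitted values depend on the prior count. Further genes below 0 were *Myo6* (-5.49), *Gem* (-5.22), *Tspan9* (-4.01), *Tmie* (-2.14) and *Myc* (-1.91). The calls of *Tspan9*, *Tmie*, *Myc*, *Cd40lg* and *Tnfsf8* were lost with the replicate block. Among maturation, interferon-stimulated and class I genes these were *Slfn1* (-3.82), *Samhd1* (-1.93), *Ifi27l2a* (-3.72), *Rtp4* (-2.18) and *H2-K1* (-1.23). *B2m* (-4.49) is the gene deleted in MHCI-/- mice.

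*Rnaset2b* was at 161 and 107 CPM in F5, 3.92 and 3.82 in MHCII-/-, 119.9 and 116 in AND and 132 and 106 CPM in MHCI-/- mice, and the difference between the contrasts was 5.06. *Lmna* was at 14.0 and 10.9 CPM in F5, 6.82 and 6.79 in MHCII-/-, 4.40 and 4.53 in AND and 32.2 and 29.5 CPM in MHCI-/- mice, and the difference between the contrasts was 3.58. *Hmga1* was at 59.3 and 52.7 CPM in F5, 6.47 and 4.26 in MHCII-/-, 58.4 and 36.1 in AND and 30.3 and 35.5 CPM in MHCI-/- mice, and the difference between the contrasts was 2.85. Also above 0 were *Amd1* (5.00), *H2-Eb1* (2.67) and *Cd74* (2.66), and *Trbv16* (6.68) is the segment of the F5 transgene. The protein filters, which ended the calls of *H2-Eb1* and *Cd74* between F5 and MHCII-/- mice, were not run for the interaction. No sign turned under the alternatives tried.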

How the results depend on the processing

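Of the named genes called over all gated cells, 30 of 67 passed under every alternative, as did 10 of 12 in CD8 SP and 5 of 13 in DP cells, and of antibodies 7 of 22, 11 of 11 and 8 of 10. Without a low-count filter, 675 genes were higher and 1165 lower over all gated cells, 753 and 922 in DP cells, 1565 lower in CD8 SP cells, and 345 above and 569 below 0 in the interaction. Without the CD5 and TCRβ gate, 75 and 307 genes and 5 and 6 antibodies were called, *Aqp11* was at -0.058, *Cd8a* at -0.38, CD8b at -0.28 and CD8a at -0.26, and the CD4-CD8- difference was 1.15 points. With a shared spread, 621 genes were higher, and 5 antibodies higher and 7 lower. DESeq2 called 354 and 636 genes in CD8 SP, 90 and 228 in CD69+, 264 and 532 in CD69- cells and 122 and 234 in the interaction, with 25 antibodies higher, and 18 higher and 20 lower in DP cells. With thresholds divided by 1.5, 443 genes were higher in CD8 SP, 115 higher and 261 lower in CD69+ and 416 higher in CD69- cells, 9 CD8 SP antibodies were higher and *Rag1* in CD8 SP cells was at 0.19. Multiplied by 1.5, 480 and 406 were higher in CD8 SP and CD69+ cells, and the CD8 SP share difference was -0.01 points. With the replicate block, 29 and 50 interactions and 17 higher DP antibodies were called. Antibody library size gave 26 higher. With the gate at the 50th percentile, *Maf* was at 0.13, *Cd8b1* at 0.53 and the CD8 SP share difference at 2.79 points. A Vβ threshold of 25 gave Vβ5+ shares of 0.0827% in F5 and 11.8% in MHCII-/- and Vβ8+ shares of 0.0968% and 4.82%, and one of 100 gave 7.81% and 0% in MHCII-/- mice. The cause of these changes was not tested.

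With each mouse left out in turn, genes higher and lower ran from 37 to 2485 and 138 to 2640 over all gated cells, 28 to 2336 and 91 to 2320 in DP, 114 to 1637 and 229 to 2111 in CD8 SP, 84 to 257 and 222 to 627 in CD69+, 101 to 1392 and 207 to 1812 in CD69- cells, and 4 to 135 and 9 to 222 in the interaction. Antibodies ran from 5 to 47 and 12 to 40, in DP from 3 to 40 and 9 to 36, in CD8 SP from 6 to 41 and 15 to 34, in CD69+ from 4 to 27 and 8 to 30, and higher in CD69- from 9 to 30. A lone mouse was assumed to vary like the other group. *Cd8a* ran from -0.034 without F5 replicate 2 to 0.15 without F5 replicate 1, *Cd8b1* from -0.10 without F5 replicate 2 to 0.072 without F5 replicate 1, and *Rag1* in CD8 SP cells from -0.80 without F5 replicate 2 to 0.25 without F5 replicate 1.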
